A study of Saccharomyces cerevisiae with 8 samples.

Results

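The genes described here encode the cytosolic translation factors and aminoacyl-tRNA synthetases of Saccharomyces cerevisiae. The 54 genes were chosen by name as 19 synthetase genes (with ARC1, a synthetase cofactor), 10 elongation, 2 termination and 23 initiation factor genes. Of these, 51 were among the 6337 genes of the count table, and all 51 passed the filter on low counts that left 6087 genes for testing. TEF4, EFB1 and HYP2 were not analysed here.

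Poly(A)-enriched RNA of 4 strains grown in rich medium (YPD) was sequenced, with 2 libraries per strain. All strains were derived from BY4741, a laboratory haploid, and shared MATa and the alleles his3Δ1, leu2Δ0 and ura3Δ0. The wild type carried met15Δ0 in addition. In hel2∆, HEL2 was replaced by LEU2. In ncs2∆elp6∆, NCS2 was replaced by HIS3MX and ELP6 by URA3, and ncs2∆elp6∆hel2∆ carried all of these replacements. The last pair of strains are called the double and the triple mutant. The study calls the mRNA replicates of the double and triple mutants biological and took the RNA from part of the cells harvested for ribosome profiling. For wild type and hel2∆ the sources used here do not say this of the mRNA libraries, so the spread behind the p-values may be partly technical.

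The libraries held between 13252947 and 23941037 counts, and 5919 to 6041 genes had at least 10 counts. HEL2 had 0 to 1 counts in strains lacking it and 1246 to 1918 in the others. NCS2 and ELP6 had at most 11 counts where deleted and at least 582 elsewhere. MET17, the gene also named MET15, had 0 to 6 counts in the wild type and hel2∆ and 4321 to 6651 counts in both strains lacking NCS2 and ELP6, although met15Δ0 is given for the wild type only. Loss of NCS2 and ELP6 and presence of MET17 therefore cannot be told apart in any comparison below that crosses these strains. The same holds for the markers HIS3MX and URA3, which replaced NCS2 and ELP6. Likewise, loss of HEL2 cannot be told apart from presence of its marker LEU2. All 6 a-specific mating genes had at least 139 counts in every library, whereas the alpha-specific MF(ALPHA)1 had at most 36. The alpha-specific SAG1 had 641 to 1086 counts.

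Synthetases attach each amino acid to its tRNA. Initiation factors then bring the initiator tRNA, the small ribosomal subunit and the mRNA together, elongation factors deliver charged tRNAs and move the ribosome, and termination factors release the finished protein. Ncs2 and Elp6 belong to the pathways that thiolate and carboxymethylate the wobble uridine of tRNAs, among them those reading AAA, CAA and GAA, the codons of lysine, glutamine and glutamate. Their synthetases are KRS1, GLN4 and GUS1. Hel2 adds ubiquitin to ribosomes that have collided, which starts quality control.

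Many members shared a short promoter sequence, the RRPE (ribosomal RNA processing element), known from yeast ribosome biogenesis genes. The letters AAAAATTTT were searched on both strands from 250 bases before to 50 bases after the first base of each start codon in the RefSeq R64 genome (sacCer3). They were present in 32 of 51 members (62.7%) and in 410 of 5801 genes overall (7.07%). Where a member held several matches, the position of the one farthest upstream was taken. This match began before the start codon in 31 of these members, at a median of 162 bases upstream, and within the coding sequence in PRT1. Sequences are shown for members whose mRNA fell or rose in the double mutant, 5′ to 3′ on the strand of the gene. Capitals mark the RRPE or its reverse complement and, in TIF35, also the reverse complement of the PAC element GCGATGAG, another element of ribosome biogenesis genes. The windows lie at chrXIV:187645-187673 (SUI1, minus strand), chrIV:1243049-1243077 (EFT2, plus), chrIV:489350-489378 (SES1, plus), chrXII:636581-636609 (YEF3, plus), chrXV:61192-61220 (CDC33, minus), chrIV:1325417-1325446 (TIF35, minus), chrXV:813843-813871 (GCD1, plus) and chrI:76301-76329 (FUN12, plus).
SUI1: tgcgccggcaAAAAATTTTagtttttttt
EFT2: gaagagagaaAAAAATTTTttcttaaaag
SES1: tggtgcaaaaAAAAATTTTtttgtcattt
YEF3: tgcgttggtgAAAATTTTTtcgcttcctc
CDC33: ctccgaaaagAAAATTTTTttcgtcgtca
TIF35: CTCATCGCttgtaacgaagttAAAATTTTT
GCD1: cgcctatcgcAAAATTTTTcacttctcat
FUN12: tgtgatgtgaAAAAATTTTtcaagcttta

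**Figure D1:**
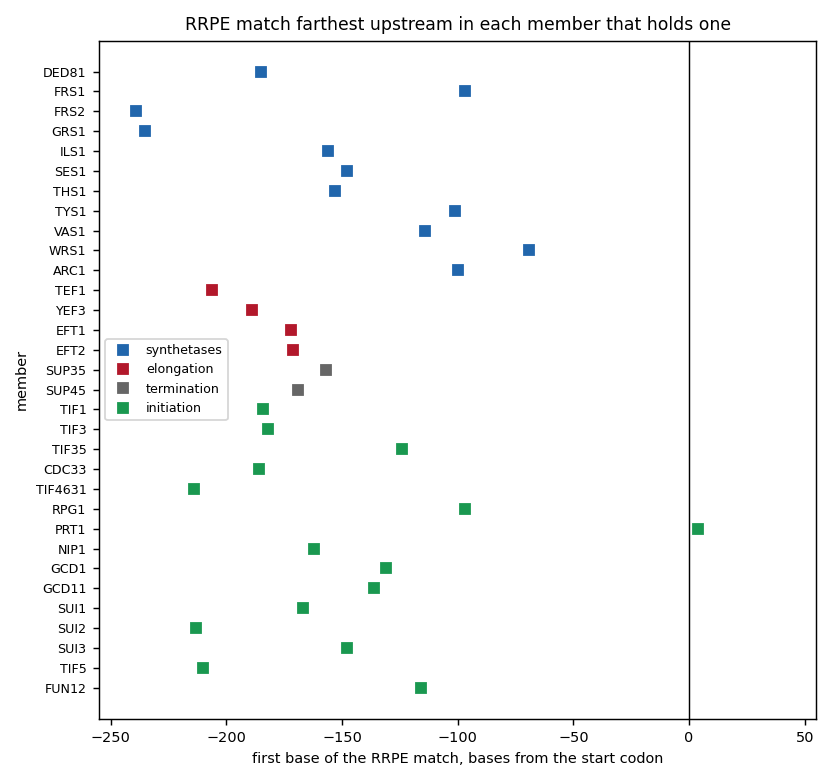
Position of the RRPE match farthest upstream in each of 32 members, as the first base in bases from the start codon (horizontal axis). Each member has 1 square coloured by class. For 31 members the square lies before the start codon, between 239 and 69 bases upstream, and PRT1 lies after it.

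The PAC element was found in 1 member, TIF35, against 232 of 5801 genes. The Gcn4 site TGACTCA was also found in 1 member (2.83% of all genes), in GLN4 and within its coding sequence. The stress response element AGGGG was found in 5 members (9.80%, against 21.9% of all genes), and a Rap1 consensus in 0 members (0.121% of all genes). The Rox1 consensus, bound by the repressor of hypoxic genes, was found in 16 genes in all (0.276%) and in ANB1 as the only member. In the 500 bases before the start codon it was found in 19 genes (0.328%), again with ANB1 as the only member. In these 500 bases the PAC element was found in THS1, TIF35 and TIF4631 (5.88% of members, against 4.93% of all genes). The Gcn4 site was found there in DED81 and SUP35 (3.92%, against 4.12%), and the stress response element in 13 members (25.5%, against 34.5%). ANB1 encodes the form of eIF5A known for expression without oxygen. ANB1 held 2 sites in the longer window, starting at −284 and −217 from the start codon, of which the first lies outside the shorter window. The sites at chrX:525645-525674 and chrX:525578-525607, both on the minus strand, are shown with the consensus in capitals.
ANB1 first site: ttttttcgcCCTATTGTTCTCgagcctaaa
ANB1 second site: gtttcctatTCCATTGTTCTCtttggtaaa

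In wild type, 49 of the 51 members lay above the level of the median gene, 45.2 CPM (counts scaled to library size) per kilobase of coding sequence. The most abundant was SUI1 (2908 CPM per kilobase), encoding eIF1, which guards start codon choice. It was followed by YEF3 (1695), which encodes the fungal elongation factor eEF3. The lowest were TIF4632 (42.3 CPM per kilobase), which encodes an eIF4G scaffold, and ANB1 (34.3). The medians by class were 361 for synthetases, 204 for elongation, 371 for termination and 229 CPM per kilobase for initiation factors. These levels, and so the ranks among members, are uncertain for TEF1 and TEF2, EFT1 and EFT2, and TIF1 and TIF2. Their coding sequences are 99.5% to 99.9% identical within pairs, and how reads matching both copies were counted is not given. The elongation median, which also lacks TEF4, EFB1 and HYP2, therefore cannot be ranked against the other classes. The members together took 3.07% to 3.54% of the counts of a library.

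**Figure D2:**
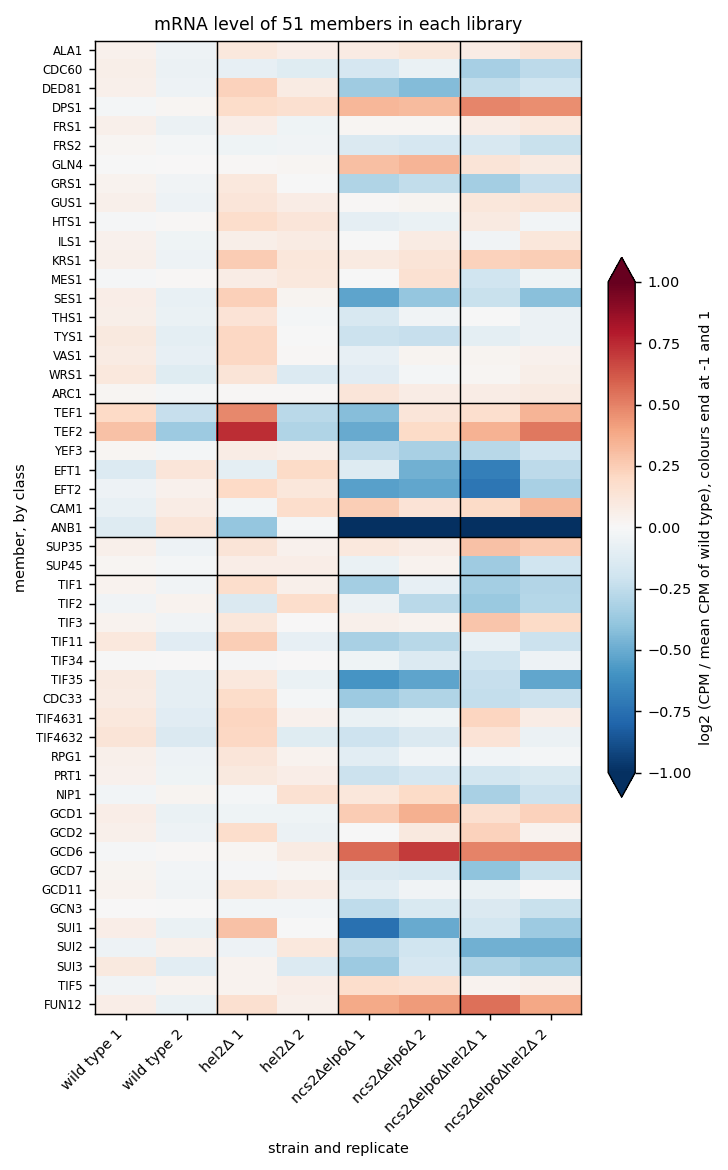
Level of the 51 members (rows, grouped by class) in each of 8 libraries (columns, with strain and replicate), as log2 of CPM over the mean CPM of wild type, with colours ending at −1 and 1. ANB1 is darkest in the 4 libraries without NCS2 and ELP6, and GCD6 is red in the same libraries.

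Where NCS2 and ELP6 were lost, synthetase and initiation factor mRNAs changed in both directions, and the elongation factor mRNAs that changed were lower. In the double mutant against wild type, edgeR's quasi-likelihood test with Benjamini-Hochberg adjustment called 15 of 51 members (29.4%) at an adjusted p under 0.05, beside 27.9% of all genes tested. Of these, 5 rose (14.9% of all genes rose) and 10 fell (13.0% of all genes fell). Scaling by library totals instead moved the median gene from 0.03 to 0.14 on the log2 scale and gave 8 higher and 6 lower members. The strains lacking HEL2 differ by the same deletions, and here the test of the triple mutant against hel2∆ called 21 members (41.2%, beside 28.8% of all genes), of which 4 rose (15.1% of all genes) and 17 fell (13.8% of all genes). With library totals this split was 7 higher and 7 lower, and the median gene moved from 0.00 to 0.11. These 2 comparisons share no library. The same 14 members were called in the same direction in both, 93.3% of the first list and 66.7% of the second. Over all genes tested, 1067 were called in the same direction in both, 62.8% and 60.8% of the genes called. Of the 37 calls of members in the 5 comparisons, 14 were lost with library totals, all of them falls. The first count fell to 8 without wild type replicate 1 and to 6 without either library of the double mutant. The second fell to 6 without replicate 1 of the triple mutant and to 13 without its replicate 2 or without either hel2∆ library.

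**Figure D3:**
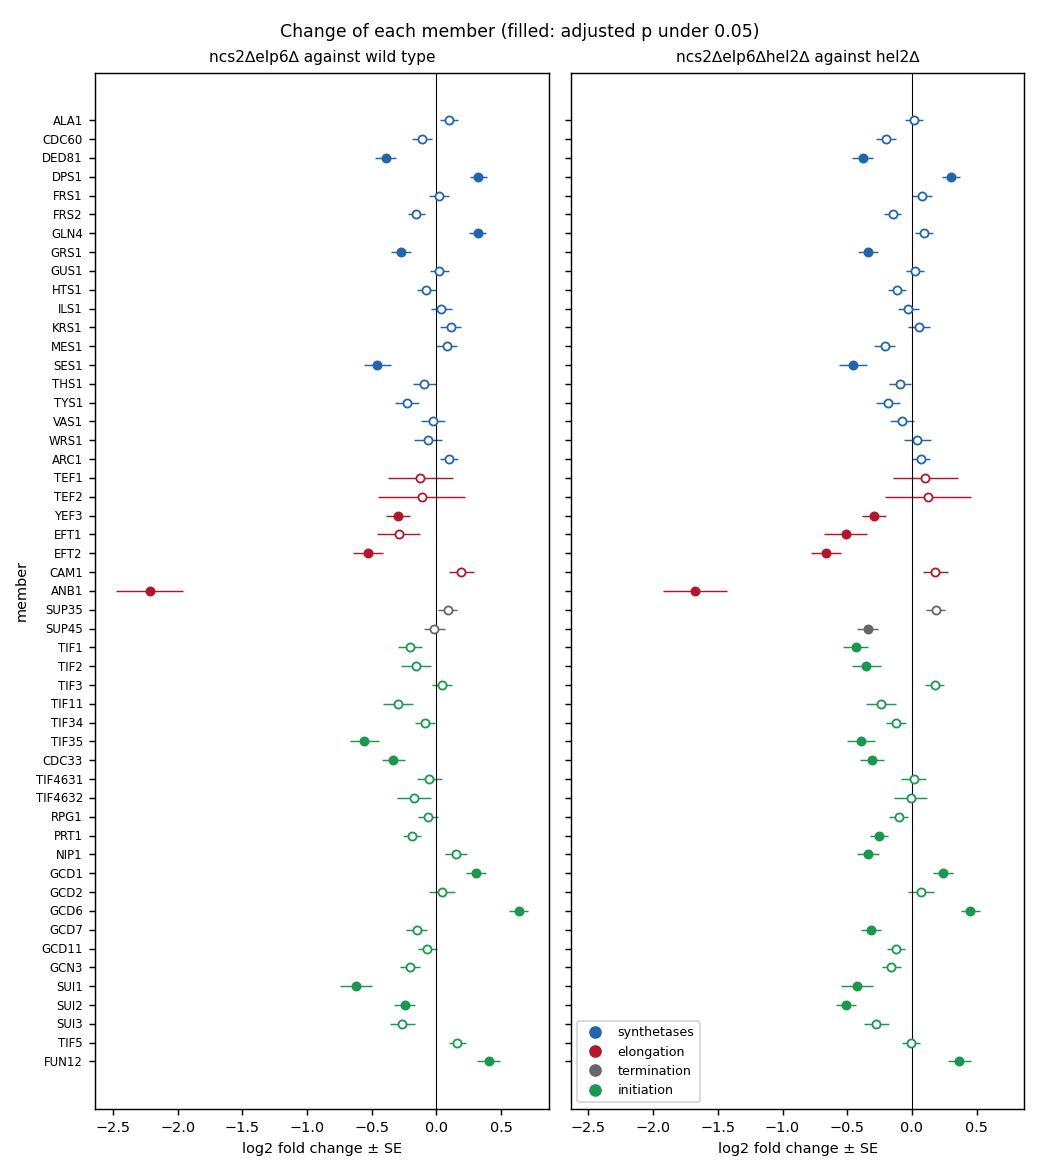
Log2 fold change (horizontal axis) with its standard error for each member in ncs2∆elp6∆ against wild type (left) and ncs2∆elp6∆hel2∆ against hel2∆ (right), coloured by class, with filled points for adjusted p under 0.05. ANB1 lies farthest left in both panels, at −2.22 and −1.68, and GCD6 farthest right, at 0.64 and 0.45.

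Of the synthetases for the 3 codons named above, GLN4 was called in the double mutant and KRS1 and GUS1 were not. KRS1, for lysine, was measured at 1088 and 1013 CPM in wild type, 1254 and 1135 CPM in hel2∆, 1120 and 1148 in the double mutant and 1234 and 1248 in the triple mutant. Its log2 fold change in the double mutant was 0.11 ± 0.08 (SE, adjusted p = 0.365, edgeR). GUS1, for glutamate, had 700.7 and 650.6 CPM in wild type and 682.4 and 688.4 CPM in the double mutant, which overlap, and a log2 fold change of 0.02 ± 0.07 (adjusted p = 0.858, edgeR).

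GLN4, for glutamine, had 447.4 and 449.9 CPM in wild type, 452.8 and 455.0 CPM in hel2∆, 551.8 and 566.9 CPM in the double mutant and 490.3 and 478.2 CPM in the triple mutant. It was thus highest in the strain lacking only NCS2 and ELP6, where the log2 rise was 0.32 ± 0.07 (adjusted p = 0.00711, edgeR). In the triple mutant against hel2∆ its log2 fold change was 0.09 ± 0.07 (adjusted p = 0.315), and the difference between both effects was not called (interaction −0.22 ± 0.09, adjusted p = 0.318). The call for GLN4 was lost without either library of the double mutant (highest adjusted p = 0.0711).

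DPS1, the aspartate enzyme, was the other synthetase that rose. It had 618.8 and 633.7 CPM in wild type, 712.7 and 698.8 CPM in hel2∆, 788.6 and 779.8 in the double mutant and 879.9 and 863.8 CPM in the triple mutant. The log2 fold change of DPS1 was 0.32 ± 0.07 (adjusted p = 0.00792) in the double mutant and 0.30 ± 0.07 (adjusted p = 0.0101) in the triple mutant. The first call was lost without wild type replicate 1 or either library of the double mutant (adjusted p up to 0.0757), and the second without hel2∆ replicate 2 or replicate 1 of the triple mutant (up to 0.0667).

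The serine, asparagine and glycine enzymes fell in both comparisons. SES1 (serine) had 946.5 and 859.5 CPM in wild type, 1064 and 921.2 CPM in hel2∆, 625.2 and 690.0 in the double mutant and 772.2 and 674.7 in the triple mutant, so that all libraries without NCS2 and ELP6 were lower. The log2 fold changes of SES1 were −0.46 ± 0.11 (adjusted p = 0.0114) and −0.46 ± 0.11 (adjusted p = 0.011). DED81 (asparagine) fell by 0.39 and 0.38 on the log2 scale, and GRS1 (glycine) by 0.27 and 0.34. The other 14 genes of the class were called in neither comparison. Among the genes that fell, DED81 was lost without wild type replicate 1 or replicate 2 of the double mutant and, in the triple mutant, without its replicate 1 (adjusted p up to 0.0675), and SES1 without replicate 1 of wild type, of the double mutant or of hel2∆ or without replicate 2 of the triple mutant (up to 0.0682). GRS1 was lost with library totals (0.142) and without any 1 of the 4 libraries in the first comparison (up to 0.148) and without replicate 1 of hel2∆ or of the triple mutant in the second (up to 0.0933). The class median was −0.03 in the double mutant against wild type and −0.08 in the triple mutant against hel2∆, beside medians of 0.03 and 0.00 over all genes tested. With library totals the synthetase medians turned positive, at 0.08 and 0.03, and without wild type replicate 1 the first was 0.06.

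**Figure D4:**
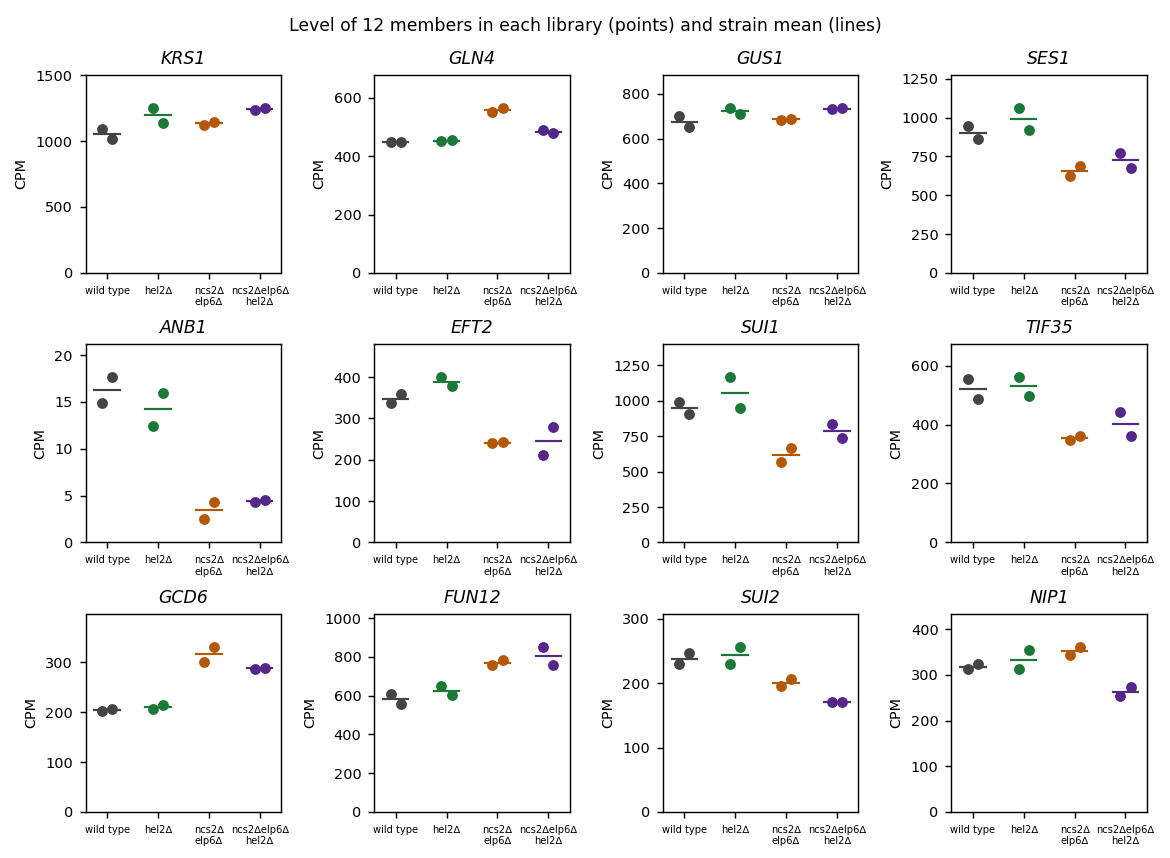
CPM of 12 members in each library, with points for the 2 libraries of a strain, lines for their mean and axes from 0. GLN4 is highest in ncs2∆elp6∆, NIP1 is lowest in ncs2∆elp6∆hel2∆, and ANB1 is under 5 CPM in all libraries without NCS2 and ELP6.

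The elongation factors that passed the test were all lower in these 2 comparisons. ANB1 showed the largest fall of any member, from 14.9 and 17.6 CPM in wild type to 2.52 and 4.34 in the double mutant, and from 12.4 and 16.0 in hel2∆ to 4.35 and 4.53 in the triple mutant. Its log2 fold changes were −2.22 ± 0.26 (adjusted p = 0.00033) and −1.68 ± 0.25 (adjusted p = 0.00108), and both calls held under all 16 alternatives. The coding sequence of ANB1 is 90.9% identical to that of HYP2, so reads of HYP2 could affect its count. Of 12 hypoxic genes on a list drawn up around ANB1, 7 fell and 1 rose in the double mutant (median −0.40). The cell wall gene TIR1 fell by 3.65 (log2, adjusted p = 0.000247) and COX5B, the hypoxic form of a cytochrome oxidase subunit, fell by 1.58 (adjusted p = 8.81e-06). In the triple mutant against hel2∆, 5 of the list fell and 3 rose. Among the latter were CYC7 (1.46 ± 0.22, adjusted p = 0.00123, edgeR) and ROX1, encoding the repressor itself (0.58 ± 0.09, adjusted p = 0.00142). In the double mutant against wild type ROX1 was not called (0.09 ± 0.09, adjusted p = 0.487, edgeR). A link between ROX1 and ANB1 was not tested.

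EFT2 and EFT1 both encode the translocation factor eEF2, and their coding sequences are 99.8% identical. EFT2 had 337.0 and 359.4 CPM in wild type, 400.0 and 377.4 CPM in hel2∆, 239.6 and 242.3 in the double mutant and 211.0 and 278.6 in the triple mutant. It fell by 0.53 ± 0.12 (adjusted p = 0.00884) and by 0.67 ± 0.12 (adjusted p = 0.00258). EFT1 had 111.9 and 136.8 CPM in hel2∆ and 74.7 and 99.8 in the triple mutant, and fell there by 0.51 ± 0.17 (adjusted p = 0.0455). The EFT1 call was lost with library totals (adjusted p = 0.0806) and without hel2∆ replicate 2 or replicate 1 of the triple mutant (up to 0.272), and that of EFT2 in the double mutant without its replicate 2 (adjusted p = 0.0536). The handling of reads that match both copies is not given in the sources used here. Whether such reads were counted, and how the counts divide between the copies, is therefore uncertain.

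YEF3 fell in both comparisons, by 0.29 (adjusted p = 0.0389) and 0.29 (adjusted p = 0.0406), calls that were lost under 6 and 10 of 16 alternatives, in both cases also with library totals and with the compared strains only. Leaving out any 1 of the 4 libraries compared ended the first (adjusted p up to 0.18), and leaving out any 1 of all 8 libraries the second (up to 0.195). TEF1 and TEF2, which encode the same eEF1A protein and whose coding sequences are 99.9% identical, had a wide spread within strains and were not called in either comparison. TEF2 had 3588 and 1746 CPM in the 2 hel2∆ libraries and 1514 and 2454 in the double mutant. CAM1, for an eEF1B gamma subunit, had a log2 difference of at most 0.19 in these comparisons and was not called. The median of the 7 elongation factors was −0.29 in both comparisons.

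Initiation factors changed unevenly within complexes. SUI1 (eIF1) had 994.5 and 907.6 CPM in wild type, 1167 and 948.8 CPM in hel2∆, 567.2 and 669.7 in the double mutant and 837.7 and 737.4 in the triple mutant. The log2 fold changes of SUI1 were −0.62 ± 0.12 (adjusted p = 0.00601) and −0.43 ± 0.12 (adjusted p = 0.0298). FUN12 (eIF5B, the GTPase of subunit joining) changed the other way, with 608.7 and 554.7 CPM in wild type and 756.1 and 781.7 in the double mutant, a rise of 0.40 ± 0.09 (adjusted p = 0.00879). FUN12 also rose in the triple mutant, from 648.6 and 602.0 CPM in hel2∆ to 852.3 and 759.5 (0.37 ± 0.09, adjusted p = 0.0128). The SUI1 call in the triple mutant was lost with library totals (adjusted p = 0.0796) and without either of its libraries or hel2∆ replicate 1 (up to 0.155). The FUN12 call was lost without wild type replicate 2 or either library of the double mutant (up to 0.0734) and without hel2∆ replicate 2 or replicate 1 of the triple mutant (up to 0.108).

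The guanine nucleotide exchange factor eIF2B consists of 5 subunits, and its subunit mRNAs diverged. GCD6, for the catalytic epsilon subunit, had 201.7 and 205.5 CPM in wild type, 206.1 and 215.3 CPM in hel2∆, 301.4 and 331.3 in the double mutant and 287.5 and 288.3 in the triple mutant. This was the largest rise among the members, by 0.64 ± 0.07 (adjusted p = 0.000307) and 0.45 ± 0.07 (adjusted p = 0.00178), and both calls held under all 16 alternatives. GCD1 (gamma, the partner of Gcd6) rose by 0.30 and 0.24, with calls that were lost under 3 and 9 of 16 alternatives, the first without wild type replicate 2 or either library of the double mutant (up to 0.163), and the second without any 1 of the 6 libraries of the mutant strains (up to 0.205), with RLE factors (0.0505), with the compared strains only (0.0611) and with DESeq2 (0.0602).

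In contrast, GCD7 (beta) fell by 0.32 ± 0.08 in the triple mutant against hel2∆ (adjusted p = 0.0163), a call lost with library totals (adjusted p = 0.0802) and without hel2∆ replicate 2 or replicate 1 of the triple mutant (up to 0.135). GCN3 (alpha) and GCD2 (delta) were not called in any comparison. Per kilobase, the ratio of GCD6 to GCD7 was 0.68 and 0.72 in wild type, 0.72 and 0.74 in hel2∆, but 1.15 and 1.28 in the double mutant and 1.31 and 1.17 in the triple mutant. The libraries with and without NCS2 and ELP6 thus did not overlap in this ratio. They did not overlap in the ratios of GCD6 to GCD1, GCD2 or GCN3 either. As GCD6 was itself called higher in both comparisons, the separation is not particular to GCD7.

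SUI2, for the alpha subunit of eIF2 that the kinase Gcn2 phosphorylates, had 229.4 and 246.9 CPM in wild type, 229.7 and 256.7 CPM in hel2∆, 194.9 and 206.9 in the double mutant and 170.7 and 171.0 in the triple mutant. The fall was 0.25 ± 0.08 (adjusted p = 0.0489) in the double mutant and 0.51 ± 0.08 (adjusted p = 0.0016) in the triple mutant. The first call was lost without any 1 of the 4 libraries compared (adjusted p of 0.0681 to 0.203) and with library totals (0.253), and the second held under all 16 alternatives. SUI3 (beta) and GCD11 (gamma) were called in neither comparison.

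In eIF3, the scaffold that binds the small subunit, TIF35 fell by 0.56 ± 0.11 (adjusted p = 0.00588) in the double mutant, from 553.3 and 488.2 to 346.3 and 362.0 CPM. TIF35 had 560.9 and 498.3 CPM in hel2∆ and 443.0 and 362.4 in the triple mutant, a fall of 0.40 ± 0.11 (adjusted p = 0.0253) that was lost with library totals (adjusted p = 0.078) and without hel2∆ replicate 1 or replicate 2 of the triple mutant (up to 0.134). PRT1 and NIP1 fell in the triple mutant against hel2∆, by 0.25 and 0.34, and were not called in the double mutant, and edgeR did not call the difference between both effects for either gene in the fit of all libraries without a block. CDC33, the cap-binding eIF4E, fell in both comparisons (0.33 and 0.31). TIF1 and TIF2, copies 99.5% identical that encode the helicase eIF4A, fell by 0.44 and 0.35 in the triple mutant. Without replicate 1 of the triple mutant, the calls there of PRT1, NIP1, CDC33, TIF1 and TIF2 were all lost (adjusted p of 0.0571 to 0.2). Those of PRT1, CDC33 and TIF2 were also lost without its replicate 2, those of PRT1, NIP1 and TIF2 without hel2∆ replicate 2, and those of PRT1 and CDC33 without hel2∆ replicate 1. Library totals ended the calls of PRT1, NIP1, CDC33 and TIF2 there (adjusted p of 0.0648 to 0.154), and fitting the compared strains only ended those of PRT1 and TIF2 (0.0583 and 0.0547). The call of CDC33 in the double mutant was lost with library totals (0.0934) and without wild type replicate 1 or either library of the double mutant (up to 0.149). The eIF4G genes TIF4631 and TIF4632 were not called. The median of the 23 initiation factors was −0.15 in the double mutant against wild type and −0.16 in the triple mutant against hel2∆, and that of both termination factors was 0.04 and −0.08, the second turning to 0.02 with library totals.

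On loss of HEL2, only small shares of the members and of all genes were called. In hel2∆ against wild type, edgeR called 0 members, with 1 at an unadjusted p under 0.05 and 0 called by DESeq2, beside 0.657% of all genes. Regardless of calls, 44 members were higher and 7 lower there (median log2 fold change 0.07), beside 2964 and 3123 of all genes (median −0.004). This lean was not tested. In the triple mutant against the double mutant, edgeR called 1 member (2.0%, beside 6.93% of all genes). This was NIP1, the eIF3c subunit, with 343.4 and 361.6 CPM in the double mutant and 253.2 and 273.4 in the triple mutant, a fall of 0.42 ± 0.08 (adjusted p = 0.0216, edgeR). NIP1 had 311.7 and 323.2 CPM in wild type and 312.7 and 353.6 in hel2∆, so that the triple mutant was lower than every other library. The call was lost without any 1 of the 4 libraries compared (adjusted p up to 0.234).

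The interaction asks whether HEL2 loss acted differently with and without NCS2 and ELP6. In edgeR it called 0 members, with 5 at an unadjusted p under 0.05, beside 1.13% of all genes. DESeq2 called 1, NIP1 (−0.47, adjusted p = 0.0287), for which edgeR gave −0.49 ± 0.12 (adjusted p = 0.104). In edgeR the NIP1 interaction was also called with a replicate block (0.0477) and without hel2∆ replicate 1 (0.0465). SUP45, the release factor eRF1, had 738.2 and 740.1 CPM in hel2∆, 672.3 and 721.7 in the double mutant and 551.7 and 615.0 in the triple mutant. Against hel2∆ the triple mutant was lower by 0.34 ± 0.08 (adjusted p = 0.0117, edgeR). Against the double mutant the difference was not called (−0.26 ± 0.08, adjusted p = 0.0847, edgeR). The interaction of SUP45 was not called either (−0.33 ± 0.11, adjusted p = 0.241, edgeR). The SUP45 call was lost with library totals (adjusted p = 0.0538) and without replicate 1 of the triple mutant (0.101). SUP35 (eRF3) was called in no comparison by edgeR in the fit of all libraries without a block.

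Of the 10 members that fell in the double mutant, 9 held the RRPE within 250 bases before to 50 after the start codon. ANB1 was the exception and held it only in the longer window of 500 bases before the start codon. Of the 5 that rose, 2 held it in the shorter window (FUN12 and GCD1). Members with the element had a median log2 fold change of −0.11 and members without it −0.08. Among 377 other genes with the element, 12.2% fell and 22.8% rose, beside 13.9% and 15.2% of 5218 genes without it. In the triple mutant against hel2∆, 43.8% of members with the element fell and 6.25% rose (median −0.17). Of members without it, 15.8% fell and 10.5% rose (median −0.01). Among the other genes, 13.8% with the element and 14.3% without it fell, and 16.7% and 15.8% rose. No test was made of these splits.

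The share of AAA, CAA and GAA codons had a median of 13.8% in the members and 11.3% in all 5803 genes with a coding sequence. It was highest in TIF11 (20.3%) and lowest in CAM1 (7.47%). The median was 13.8% for the 5 members that rose in the double mutant and 13.4% for the 10 that fell. Pairs of codons with CGA or GCA first and AAA or CAA second occurred in 12 members (23.5%), beside 40.5% of all genes. Among the members, CGA followed by AAA occurred in SUI2 and TIF4632 only. These sites at chrX:451413-451442 (plus strand) and chrVII:407886-407915 (minus strand), at codons 136 and 137 of SUI2 and 568 and 569 of TIF4632, are shown with the pair in capitals.
SUI2: tggccattaagtCGAAAAtttggtcacgct
TIF4632: gaagaagtagaaCGAAAAatgaagtctcta

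Other genes of translation differed by group. In the double mutant against wild type, 60 of 135 cytosolic ribosomal protein genes fell and 1 rose (median −0.31), while in the triple mutant against hel2∆ 52 fell and 1 rose (median −0.27). Of 14 mitochondrial synthetases, 6 fell and 0 rose in each comparison, with medians of −0.29 and −0.28. These included DIA4, the mitochondrial serine enzyme, at −0.66 ± 0.13 (adjusted p = 0.00549) and MSF1, the phenylalanine enzyme, at −0.56 ± 0.13 (adjusted p = 0.0117) in the double mutant. Of 7 mitochondrial translation factors, 2 and 3 fell. None of the 4 other cytosolic synthetases was called by edgeR.

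Of 12 enzymes that modify factors, 4 rose and 2 fell in the double mutant. DPH1 and DPH2, which make the diphthamide of eEF2, rose by 0.42 each (adjusted p = 0.00321 and 0.00748), and EFM1, which methylates eEF1A, by 0.62 (adjusted p = 0.00479). In the triple mutant against hel2∆, DPH1 and DPH2 rose by 0.36 and 0.27, but EFM1 was not called (0.165 ± 0.117, adjusted p = 0.316, edgeR). EFM1 was lower in the triple than in the double mutant (−0.47 ± 0.12, adjusted p = 0.0441, edgeR). In the double mutant against wild type, EFM3 fell by 0.465 (adjusted p = 0.0324), and DYS1, the first enzyme of hypusine formation on eIF5A, by 0.26 (adjusted p = 0.0197). Of 11 other initiation-linked genes, 1 rose and 2 fell in the double mutant, and of 8 elongation-linked genes 1 rose and 2 fell. In the first list TIF6 (eIF6, which keeps large ribosomal subunits from joining small ones) rose by 0.27. The ribosome recycling genes TMA22 and TMA64 fell by 0.46 and 0.36. In the second list GCN1, the activator of Gcn2, rose by 0.27, and GIR2 (a Gcn1 partner) and STM1 (a ribosome preservation factor) fell by 0.50 and 0.26. In the triple mutant against hel2∆, GCN1 was not called (0.06 ± 0.07, adjusted p = 0.56, edgeR). The others named from these lists were called there in the same direction. Of 34 amino acid genes known as targets of Gcn4, 21 rose and 1 fell in the double mutant (median 0.43), and 16 rose and 1 fell in the triple mutant against hel2∆ (median 0.28). The strains compared here also differ in MET17 and in the markers HIS3MX and URA3.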

How the data were processed

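The deposited table holds raw read counts per gene, 1 column per library, made by the authors from poly(A)-enriched TruSeq stranded libraries mapped to coding sequences. Bowtie and sacCer3 are named in the submitters' processing notes. The counting program and the treatment of reads with several matches are not given in the sources used here. Counts were filtered with filterByExpr, scaled by TMM (trimmed mean of M values) and tested in edgeR 4.0.16 (R 4.3.3) with a quasi-likelihood fit over all 8 libraries, with p-values adjusted by Benjamini-Hochberg over 6087 genes. Standard errors were derived from the F statistic. CPM were computed from the scaled counts. DESeq2 1.42.0 was an alternative, and it was also the tool used by the authors. The other alternatives were RLE factors, library totals, no filter, the compared strains only, a replicate block, leaving out each library, and summing near-identical copies (at least 95% identity over 100 bases).

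The members and lists were chosen with earlier results of these data known. Genes were named by rule: KRS1, GLN4, GUS1, copy pairs, SUP35 and SUP45, up to 5 largest rises and falls per comparison among called members without overlap, and up to 3 per list and direction. Other called members were named with their log2 fold change, and MET17 and the deleted genes as a check of the labels. The codon pair sites and the ratios of GCD6 to the other eIF2B genes were chosen after the data were seen. On data simulated from these libraries, folds of 1.25, 1.5 and 2 were set in 60, 69 and 71 of 6087 genes. The fit of ncs2∆elp6∆ against wild type called 15.0%, 62.3% and 84.5% of them. The changed genes were drawn at random from all levels, whereas most members lay above the median gene. They were also far fewer than the 27.9% of genes called in the real comparison. The rates therefore do not give the share of changed members that would be called. A gene of the Gcn4 target list is not reported here and was left out of its counts.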

Additional observations from a re-analysis of the deposited data

Results flagged for a closer look

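With 2 libraries per strain, no single library could be tested as standing apart. No member passed the edgeR test of all libraries, without a block, for a HEL2 effect that differed with and without NCS2 and ELP6. Among the listed genes around the members, COX5B did, with an interaction of 1.08 ± 0.14 (log2, adjusted p = 0.00405). COX5B fell by 1.58 in the double mutant against wild type and by 0.50 in the triple mutant against hel2∆. COX5B was picked out by this test.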

How the results depend on the processing

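Of 37 called results of single members, 8 kept their call under every alternative, 29 lost it under at least 1 and 0 changed direction. Leaving out 1 library gave 6 to 16 called members in the double mutant against wild type, 6 to 21 in the triple mutant against hel2∆, 0 to 1 in the triple mutant against the double mutant, 0 to 1 in the interaction and 0 in hel2∆ against wild type. The first count was 8 without wild type replicate 1 and 6 without either library of the double mutant, and the second was 6 without replicate 1 of the triple mutant and 13 without its replicate 2 or either hel2∆ library. The interaction reached 1 without hel2∆ replicate 1. In the triple mutant against the double mutant the count was 3 with library totals and 2 both with the compared strains only and with DESeq2. The interaction had 1 with DESeq2. A lone library is assumed to vary like the other strains.

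Same-numbered libraries did not deviate together throughout (correlations of −0.209 to 0.476), so the numbers were not taken as pairs. With a replicate block, 16 members were called in the double mutant against wild type, 21 in the triple mutant against hel2∆ and 1 in the interaction (NIP1). A crossed pairing of the double mutant, chosen after seeing the data, gave 25, 29, 9 in the triple mutant against the double mutant and 1 in the interaction.

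Class medians were compared in the double mutant against wild type and in the triple mutant against hel2∆. Library totals moved 7 of 8 class medians by more than the spread between replicates. In the double mutant against wild type they became 0.0794 for synthetases, −0.186 for elongation, 0.143 for termination and −0.0462 for initiation. In the triple mutant against hel2∆ they became 0.0266 for synthetases, 0.0237 for termination and −0.0564 for initiation. Leaving out 1 library gave −0.103 to 0.0555 for synthetases, −0.448 to −0.276 for elongation, −0.0039 to 0.0712 for termination and −0.184 to −0.0888 for initiation in the first comparison, and −0.14 to −0.0135, −0.348 to −0.249, −0.123 to −0.0512 and −0.199 to −0.132 in the second. GUS1, not called, turned negative in the double mutant with RLE factors (−0.0061), the compared strains only (−0.0073) and DESeq2 (−0.0068). Leaving out 1 library gave −0.0325 to 0.075 for GUS1 there, and −0.0027 to 0.0491 for GUS1 and −0.016 to 0.13 for KRS1, also not called, in the triple mutant against hel2∆. The causes were not tested.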
